A study of Mus musculus with 6 samples.

Results

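The Wnt ligands, Frizzled receptors and secreted inhibitors of Wnt signaling were examined in mouse brain tumors grown in hosts with or without Esm1. Genes were taken by symbol, as every row whose name begins with Wnt, Fzd, Sfrp or Dkk followed by a digit. The rule found 30 of the 16729 genes in the table, of which 14 are ligands (Wnt1, Wnt2, Wnt2b, Wnt3, Wnt4, Wnt5a, Wnt5b, Wnt6, Wnt7a, Wnt7b, Wnt9a, Wnt10a, Wnt10b and Wnt16), 10 are receptors (Fzd1 to Fzd10) and 6 are inhibitors (Sfrp1, Sfrp2, Sfrp4, Sfrp5, Dkk2 and Dkk3).

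The tumors came from mG7080, a gliomasphere line derived from a mouse glioblastoma model, injected into the brains of female C57BL/6 mice, given as C57BL/6J in the study's methods. Hosts were either WT (3 libraries, WT 1 to WT 3) or lacked Esm1, which encodes the endothelial secreted factor Endocan (3 libraries, KO 1 to KO 3). The injected cells were the same line in both groups, and only the hosts were deleted for Esm1. The study's methods give a host age of 6 to 8 weeks and its reporting summary 8 to 12 weeks, with 500000 cells injected. Each library was made from frozen tumor tissue and holds RNA of tumor and host cells together, so fewer cells of a type and less RNA per cell cannot be told apart. The tumor cells are 1 line, and no source used here ties the libraries to litters or days.

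Wnt proteins are secreted, lipid-modified ligands that bind the cysteine-rich domain of Frizzled receptors at the cell surface. With the co-receptors Lrp5 and Lrp6 this stabilizes beta-catenin, which acts with TCF/LEF factors on target genes, whereas other ligand and receptor pairs act through planar cell polarity and calcium routes without beta-catenin. Sfrp proteins resemble the Frizzled ligand-binding domain and can bind Wnt proteins outside the cell, and Dkk2 binds Lrp5 and Lrp6. In the brain, Wnt7a and Wnt7b are known for their action on endothelial cells of the blood-brain barrier, and Wnt signaling is also known for its roles in neural progenitors, axon guidance and synapses.

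Totals ran from 17632070 to 22241832 reads per library, so that 3 reads corresponded to 0.134 to 0.171 CPM, the read count scaled to library size. Esm1 stood at 1.19, 1.09 and 4.05 CPM in WT 1 to WT 3, and at 0.057, 1.07 and 0.208 CPM in KO 1, KO 2 and KO 3. The library labelled KO 2 thus held Esm1 at the level of the WT libraries, and on the first principal component of all genes (87.2% of the variance) it lay at -27.6, among the WT libraries (-76.4 to -12.7) and away from KO 1 and KO 3 (76.6 and 98.4). Esm1 had a log2 fold change of -2.20 (adjusted p = 0.192) over all 6 libraries and of -3.89 (SE 0.98, adjusted p = 0.0226) without KO 2. Fold changes of the Wnt, Fzd, Sfrp and Dkk genes are therefore given over all 6 libraries and over the 5 without KO 2, and those of other pathway genes mostly over the 5. Since KO 2 was set aside with its values known, the p-values over 5 libraries are not those of a planned comparison. Log2 fold changes are KO minus WT throughout, with standard errors and Benjamini-Hochberg adjusted p-values over all genes tested from edgeR's quasi-likelihood test, and a gene was called at an adjusted p under 0.05.

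Promoter sequences are shown for Fzd9, Wnt5b and Fzd1, the 3 genes with the lowest fold changes described below, and for Wnt9a, the gene with the highest, since they mark the ends of the range. They were chosen after their values were seen. The genes shown are also the only ones with a promoter at hand that hold either motif described here. Wnt4, the next highest gene with a promoter at hand, held neither. The choice therefore cannot show whether motifs and large fold changes go together. Each is 300 bases long, from 250 bases before to 50 bases after a RefSeq transcription start (GRCm38.p6), written on the strand of the gene. Capitals mark either the TCF/LEF core motif CTTTGA, which reads TCAAAG on the other strand, or the E-box CACGTG, the motif bound by factors of the Myc family. Fzd9 (chr5:135250998-135251297, minus strand) holds an E-box at -88 from the start, and Wnt9a (chr11:59306680-59306979, plus strand) holds one at -228. Fzd1 (chr5:4758167-4758466, minus strand) holds a TCF/LEF core at -242, and the Wnt5b window shown (chr6:119449337-119449636, minus strand), 1 of its 3 RefSeq starts, holds one at -71.
Fzd9: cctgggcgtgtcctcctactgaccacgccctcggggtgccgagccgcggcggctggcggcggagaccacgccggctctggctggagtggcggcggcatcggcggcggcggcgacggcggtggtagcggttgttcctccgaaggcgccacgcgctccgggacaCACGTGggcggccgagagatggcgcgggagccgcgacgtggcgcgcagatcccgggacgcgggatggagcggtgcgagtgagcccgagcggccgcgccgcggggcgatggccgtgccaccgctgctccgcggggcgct
Wnt9a: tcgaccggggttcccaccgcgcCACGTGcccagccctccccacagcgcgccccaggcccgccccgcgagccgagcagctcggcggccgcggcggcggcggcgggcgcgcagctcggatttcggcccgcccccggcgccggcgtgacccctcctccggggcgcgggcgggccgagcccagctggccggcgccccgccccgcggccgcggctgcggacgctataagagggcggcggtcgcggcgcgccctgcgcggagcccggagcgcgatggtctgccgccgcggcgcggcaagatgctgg
Fzd1: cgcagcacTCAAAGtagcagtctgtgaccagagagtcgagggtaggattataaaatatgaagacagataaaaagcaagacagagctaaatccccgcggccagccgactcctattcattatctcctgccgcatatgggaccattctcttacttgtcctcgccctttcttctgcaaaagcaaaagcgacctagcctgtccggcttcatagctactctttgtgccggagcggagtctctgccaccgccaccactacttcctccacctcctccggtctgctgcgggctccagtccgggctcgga
Wnt5b: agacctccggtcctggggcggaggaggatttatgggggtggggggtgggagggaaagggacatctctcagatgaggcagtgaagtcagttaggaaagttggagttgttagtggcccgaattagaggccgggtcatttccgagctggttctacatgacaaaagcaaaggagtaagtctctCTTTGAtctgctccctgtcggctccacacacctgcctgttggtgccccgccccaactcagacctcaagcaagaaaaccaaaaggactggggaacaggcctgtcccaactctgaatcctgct

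Of the 30 genes, 20 matched a RefSeq promoter, with 22 windows in all. Wnt10a, Wnt5a, Wnt7b, Fzd2, Fzd3, Fzd6, Fzd8, Sfrp1, Sfrp4 and Dkk3 had none at hand. The TCF/LEF core, searched on both strands, was found in 2 of the 22 windows (9.09%), against 16.0% of all 32851 promoters. They were the window of Fzd1 and the Wnt5b window shown, and the other Wnt5b windows held none. An E-box, which reads the same on both strands and shares no overlap with the other motif, was found in 2 of the 22 windows (9.09%), those of Fzd9 and Wnt9a, against 7.15% of all promoters. The windows of these genes were rich in G and C, with a median GC content of 68.7% and a median of 26.5 CpG dinucleotides, against 52.7% and 7 over all promoters. A match describes the letters of the window and not a bound site.

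Over all 6 libraries, 0 of the 29 genes tested passed an adjusted p of 0.05, and 0 of all 16166 genes did (0.0%). The lowest adjusted value was 0.184. Before adjustment, 3 of the 29 had a p under 0.05 and were lower in the KO group and 6 were higher, against 11.9% and 15.2% of all genes. The 6 higher genes include Fzd10 and Wnt10b. Both, like Wnt1, had enough reads to enter this fit only through the KO group, where they were high. Wnt16 was too low to be tested here. DESeq2 called 4 of them over the same 6 libraries, namely Fzd1 and Fzd7 as lower (2.8% of all genes) and Sfrp1 and Wnt9a as higher (5.03%), and edgeR's exact test called Fzd1 as lower (0.285%) and none as higher (0.464%). In 3 genes, Fzd1, Fzd5 and Fzd7, all KO libraries lay below all WT libraries, and in 7, Wnt2b, Wnt4, Wnt9a, Wnt10b, Fzd10, Sfrp1 and Dkk2, all lay above. The corresponding shares of all genes were 14.6% and 13.2%. Of the genes that lay above, Fzd10 and Wnt10b carry the same limit of entry through the KO group.

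Without KO 2, 17 of the 30 genes passed, which is 56.7%, close to the 52.8% of all 16279 genes that did. Fzd1, Fzd7, Fzd9, Wnt5b, Sfrp2 and Sfrp4 were lower (6 genes; 28.3% of all genes) and Wnt1, Wnt2, Wnt4, Wnt9a, Wnt10a, Wnt10b, Wnt16, Fzd3, Fzd8, Sfrp1 and Dkk3 were higher (11 genes; 24.5% of all genes). Wnt16 held 9, 4 and 6 reads in WT 1 to WT 3 and 16 and 22 in KO 1 and KO 3. It had enough reads to enter this fit only through the group where it was high, and it is part of the ligand counts and median below. By role, 1 ligand was lower and 7 were higher with 6 not passing, 3 receptors were lower and 2 higher with 5 not passing, and 2 inhibitors were lower and 2 higher with 2 not passing. The median log2 fold change was 0.96 for ligands, -0.22 for receptors and 0.13 for inhibitors, beside -0.02 for all genes. Over all 6 libraries these medians were 0.73, -0.19, 0.08 and -0.02. Fzd10 entered both fits, and Wnt1 and Wnt10b the fit over 6 libraries, only through the KO group, where they were high. They are part of these medians. These counts rested on few libraries. Leaving out 1 more library gave 20 calls without WT 1 (66.4% of all genes called), 11 without WT 2 (36.7%), 4 without WT 3 (3 lower, beside 13.9% of all genes, and 1 higher, beside 2.87%), 1 without KO 1 (Fzd9; 11.3%) and 0 without KO 3 (0.0%). DESeq2 called 6 genes as lower (28.4% of all genes) and 12 as higher (28.2%) over the 5 libraries, and the exact test 6 (28.5%) and 11 (26.6%). In 8 genes KO 1 and KO 3 lay below all WT libraries (40.2% of all genes), and in 15 they lay above (37.5%).

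**Figure D1:**
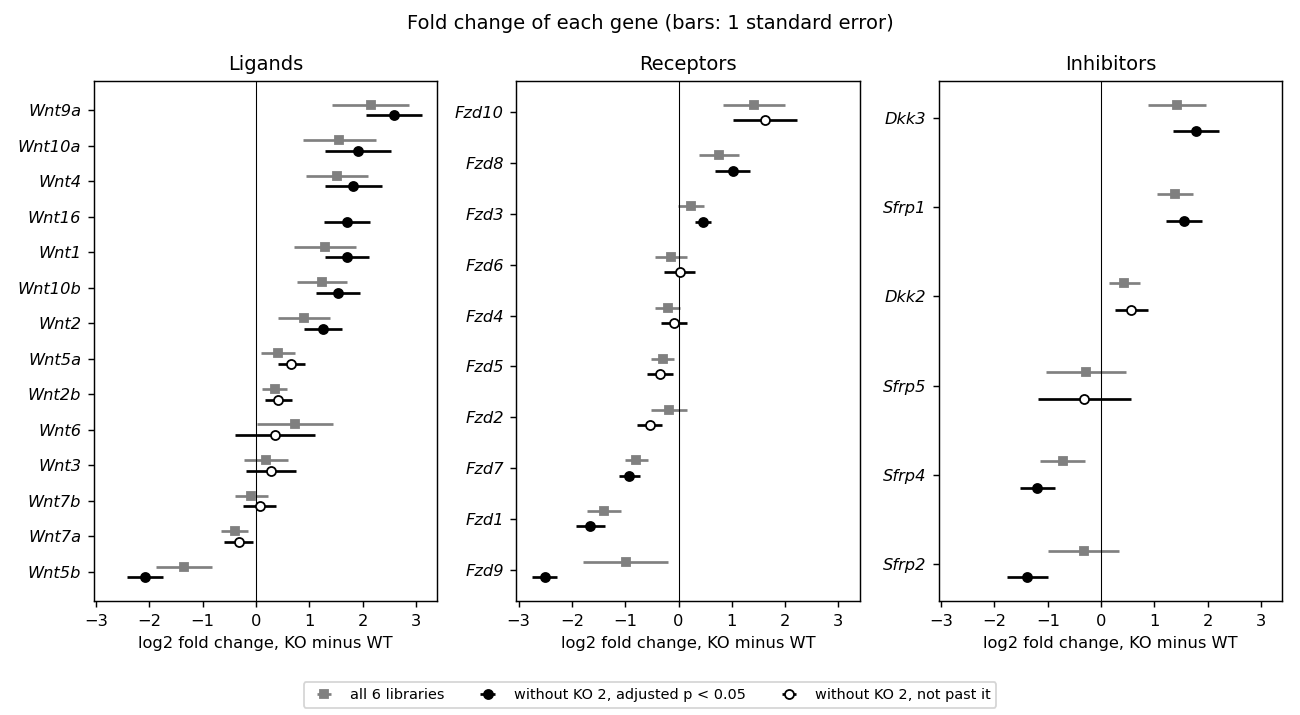
Log2 fold change (KO minus WT) of each gene by role, with bars of 1 standard error. Grey squares are all 6 libraries, circles are the 5 without KO 2, and filled circles passed an adjusted p of 0.05. Wnt9a (2.59) and Fzd9 (-2.51) lie at the ends of the range without KO 2, and Fzd9 moves to -0.99 when KO 2 is included.

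Wnt7b was the most abundant ligand per transcript length in every library, with 26.8% to 48.5% of the summed ligand level in CPM per kilobase. Its level was 35.3, 56.5 and 59.1 CPM in WT 1 to WT 3, and 38.7, 39.2 and 66.3 CPM in KO 1 to KO 3. The groups overlapped, with WT 1 below and KO 3 above all other libraries, and the log2 fold change was -0.09 (SE 0.31, adjusted p = 0.842) over 6 libraries and 0.07 (SE 0.32, adjusted p = 0.868) over 5. Its close relative Wnt7a, which acts on the same endothelial receptor complex, stood at 14.1, 22.7 and 24.2 CPM in the WT libraries and at 17.7, 14.6 and 14.6 CPM in the KO libraries, again with overlap. Per length, Wnt7b exceeded Wnt7a by 2.05 to 2.53 times in 5 libraries and by 4.27 times in KO 3. Wnt7b (chr15:85535437-85582473, GRCm38, GENCODE vM21) shares exonic bases with AU022754 on the other strand, and whether the counting used strand is not stated, so its counts may include reads of that gene.

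Wnt9a (chr11:59306928-59333552), a ligand known from joint and blood stem cell development, had the largest fold change of the ligands. It stood at 5.38, 1.5 and 4.69 CPM in the WT libraries and at 18.3, 5.43 and 28.2 CPM in KO 1, KO 2 and KO 3. All KO libraries lay above all WT libraries, but KO 2 exceeded WT 1 only narrowly. The log2 fold change was 2.15 (SE 0.72, adjusted p = 0.184) over 6 libraries and 2.59 (SE 0.52, adjusted p = 0.0140) over 5.

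Wnt4 (chr4:137277489-137299726), known for its role in kidney and reproductive tract development, showed the same order. The level was 7.85, 2.12 and 7.35 CPM in the WT libraries, against 17.4, 8.81 and 23.6 CPM in the KO libraries. The lowest KO library was again KO 2, just above WT 1. The log2 fold change was 1.51 (adjusted p = 0.184) over 6 libraries and 1.83 (SE 0.53, adjusted p = 0.0321) over 5.

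Wnt6 and Wnt10a are neighbors on chromosome 1, on the same strand and 6194 bases apart. Wnt10a, known from tooth and skin development, stood at 4.47, 0.827 and 2.81 CPM in the WT libraries and at 9.01, 3.74 and 11.4 CPM in the KO libraries, with KO 2 inside the WT range. Without KO 2 its log2 fold change was 1.91 (SE 0.61, adjusted p = 0.0421), against 1.56 (adjusted p = 0.188) with it. Wnt6 stood at 3.47, 0.517 and 1.97 CPM in the WT libraries and at 1.60, 4.90 and 3.49 CPM in the KO libraries, with KO 2 the highest library and WT 2 the lowest. The groups overlapped for Wnt6 and not for Wnt10a once KO 2 was left out.

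Wnt1, the founding member of the family and a midbrain organizer, and Wnt10b lie head to head on chromosome 15, 11707 bases apart. Wnt1, Wnt10b and Wnt16, which acts on bone, were the 3 genes with a mean level under 1 CPM, and together they ranged between 0.207 and 2.24 CPM. In all of them KO 1 and KO 3 were the highest libraries. Without KO 2 their log2 fold changes were 1.71 (adjusted p = 0.0199) for Wnt1, 1.54 (adjusted p = 0.0262) for Wnt10b and 1.71 (adjusted p = 0.0226) for Wnt16. As said above, Wnt16 entered that fit only through KO 1 and KO 3. With KO 2, Wnt1 was at 1.29 (adjusted p = 0.191) and Wnt10b at 1.25 (adjusted p = 0.184), and both entered that fit only through the KO group.

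Wnt2, a ligand with a known role in lung development, stood at 3.05, 1.86 and 1.83 CPM in the WT libraries and at 6.39, 1.96 and 4.32 CPM in the KO libraries. All WT libraries lay below KO 1 and KO 3, and KO 2 lay within their range. Its log2 fold change was 1.25 (SE 0.35, adjusted p = 0.0303) over 5 libraries and 0.89 (adjusted p = 0.232) over 6. For Wnt2b, the closest relative of Wnt2, the levels were 5.09, 4.55 and 3.60 CPM against 5.70, 5.34 and 6.04 CPM. Its groups did not overlap with or without KO 2, but the difference was small, at 0.42 (SE 0.25, adjusted p = 0.207) over 5 libraries and 0.35 (SE 0.23, adjusted p = 0.293) over 6. Wnt3 stood between 1.25 and 3.42 CPM, with both extremes in the KO group (KO 3 and KO 1), and the WT libraries at 2.09, 1.71 and 1.97 CPM lay between them beside KO 2 at 2.00 CPM.

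Wnt5a and Wnt5b, related ligands best known for signaling without beta-catenin, went apart. Wnt5b (chr6:119432531-119544347) stood at 5.81, 9.20 and 9.47 CPM in the WT libraries and at 1.71, 5.88 and 2.13 CPM in the KO libraries. KO 1 and KO 3 were below all others, and KO 2 lay beside WT 1. It was the only ligand called as lower without KO 2, with a log2 fold change of -2.07 (SE 0.34, adjusted p = 0.0098), against -1.35 (SE 0.53, adjusted p = 0.184) over 6 libraries. Wnt5a stood at 7.09, 8.17 and 6.46 CPM in the WT libraries and at 9.30, 6.37 and 13.6 CPM in the KO libraries. KO 1 and KO 3 were its highest libraries, but the difference of 0.67 (SE 0.25, adjusted p = 0.0653) over 5 libraries did not pass, nor did the 0.41 (SE 0.32, adjusted p = 0.361) over 6. Per length, the ratio of Wnt5a to Wnt5b was 0.665, 0.483 and 0.372 in the WT libraries and 0.590 in KO 2, against 2.96 in KO 1 and 3.47 in KO 3. Wnt5b was thus the more abundant of the pair in 4 libraries and Wnt5a in the other two. Wnt5a shares exonic bases with Gm2670 on the other strand, with the same limit as for Wnt7b.

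**Figure D2:**
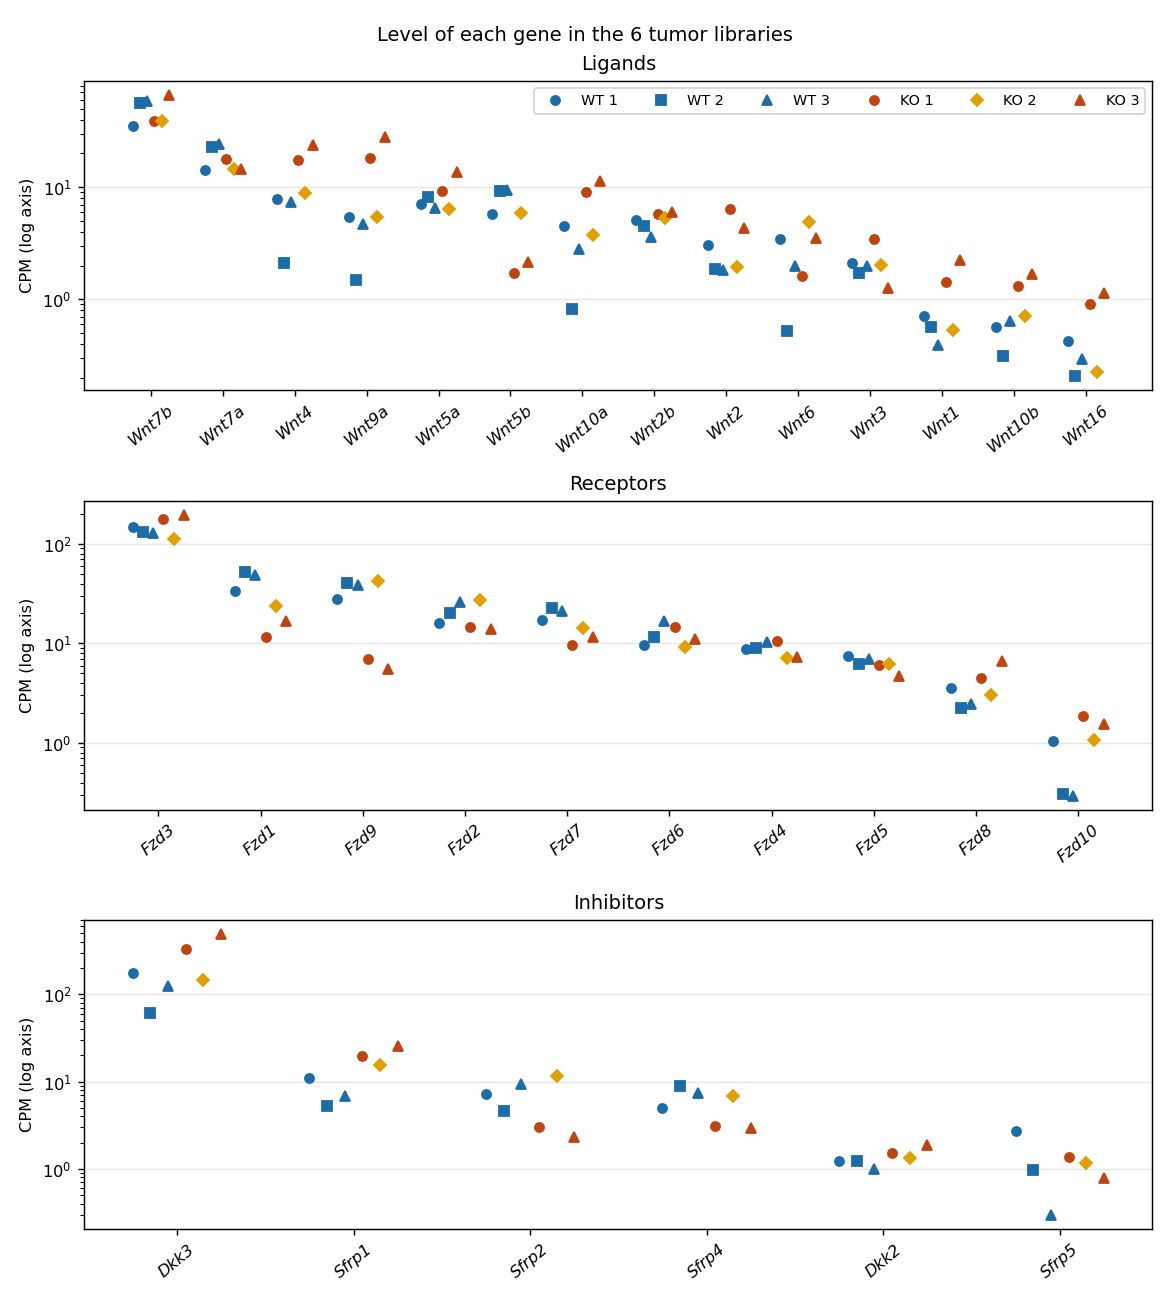
Level of each gene in CPM (log axis) in the 6 libraries, by role and in order of mean level, with WT libraries in blue, KO 1 and KO 3 in orange and KO 2 as yellow diamonds. KO 1 and KO 3 lie together at the low end for Fzd9 (6.96 and 5.52 CPM) and at the high end for Wnt9a (18.3 and 28.2 CPM), while KO 2 lies with or near the WT libraries in both.

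Among the receptors, Fzd9 (chr5:135248938-135251230), a receptor expressed in the hippocampus whose human counterpart lies in the region deleted in Williams syndrome, had the largest fold change without KO 2, but not over all 6 libraries, where those of Fzd10 and Fzd1 were larger. It stood at 28.2, 40.5 and 38.3 CPM in WT 1 to WT 3, at 42.1 CPM in KO 2, and at 6.96 and 5.52 CPM in KO 1 and KO 3. KO 2 was the highest of all libraries, and KO 1 and KO 3 were far below every other. The log2 fold change was -2.51 (SE 0.24, adjusted p = 0.0080) without KO 2 and -0.99 (SE 0.79, adjusted p = 0.370) with it.

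Fzd3, a receptor of the planar cell polarity route that guides axons, was nearly level by comparison. It stood at 148, 133 and 128 CPM in the WT libraries and at 177, 111 and 197 CPM in KO 1, KO 2 and KO 3. The highest libraries were KO 1 and KO 3 and the lowest KO 2, with a log2 fold change of 0.46 (SE 0.14, adjusted p = 0.0395) over 5 libraries and 0.23 (SE 0.24, adjusted p = 0.472) over 6. Per length, Fzd9 was the most abundant receptor in the WT libraries and in KO 2, with 27.9% to 39.1% of the summed receptor level. In KO 1 and KO 3 it was Fzd3, with 39.3% and 43.0%, while Fzd9 made up 9.36% and 7.26%. The ratio of Fzd3 to Fzd9 per length was 0.437 to 0.868 in the WT libraries and KO 2, and 4.2 and 5.92 in KO 1 and KO 3.

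Fzd1, Fzd2 and Fzd7 form a subgroup of closely related receptors. Fzd1 (chr5:4753839-4758035) stood at 33.5, 52.2 and 49.2 CPM in the WT libraries and at 11.7, 23.7 and 16.7 CPM in the KO libraries, so that the groups did not overlap and KO 2 was the highest of its group. Its log2 fold change was -1.39 (SE 0.32, adjusted p = 0.184) over 6 libraries and -1.66 (SE 0.27, adjusted p = 0.0099) over 5. Fzd7 (chr1:59482424-59486955) followed the same order, at 17.2, 22.5 and 21.2 CPM against 9.75, 14.3 and 11.6 CPM. Its log2 fold change was -0.79 (SE 0.22, adjusted p = 0.184) over 6 libraries and -0.92 (SE 0.20, adjusted p = 0.0159) over 5. Fzd2 stood at 16.0, 20.4 and 26.3 CPM in the WT libraries and at 14.7, 27.6 and 13.9 CPM in the KO libraries, with KO 2 the highest and KO 1 and KO 3 the lowest of all. For Fzd2 the log2 fold change was -0.18 (SE 0.34, adjusted p = 0.701) over 6 libraries and -0.54 (SE 0.24, adjusted p = 0.102) over 5, and neither passed. Fzd1 and Fzd7 were the only called receptors in which KO 2 lay on the side of KO 1 and KO 3.

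Fzd5 and Fzd8 form a second pair of relatives. Fzd8 stood at 3.57, 2.22 and 2.47 CPM in the WT libraries and at 4.51, 3.03 and 6.61 CPM in the KO libraries, with KO 2 inside the WT range and a log2 fold change without it of 1.02 (SE 0.33, adjusted p = 0.0446). With KO 2 it was 0.76 (adjusted p = 0.205). Fzd5, known for its role in the eye, stood at 7.52, 6.20 and 6.96 CPM in the WT libraries and at 6.05, 6.19 and 4.74 CPM in the KO libraries. The groups did not overlap, but KO 2 and WT 2 were nearly level, and the log2 fold change was -0.30 (SE 0.22, adjusted p = 0.328) over 6 libraries and -0.35 (SE 0.24, adjusted p = 0.251) over 5.

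Fzd4, the receptor for the non-Wnt ligand Norrin in blood vessels of the retina and brain, stood at 8.85, 9.10 and 10.4 CPM in the WT libraries and at 10.6, 7.12 and 7.29 CPM in the KO libraries. Fzd6, a planar cell polarity receptor, stood at 9.71, 11.5 and 16.9 CPM against 14.7, 9.17 and 11 CPM. Both overlapped between the groups. Fzd10, the scarcest receptor, stood at 1.05, 0.310 and 0.296 CPM in the WT libraries and at 1.88, 1.07 and 1.56 CPM in the KO libraries. Its groups did not overlap, although KO 2 and WT 1 were nearly level. The log2 fold change of 1.42 (SE 0.58, adjusted p = 0.184) over 6 libraries and of 1.62 (SE 0.60, adjusted p = 0.0624) over 5 did not pass. Fzd10 held 22, 6 and 6 reads in WT 1 to WT 3 and 33, 24 and 30 in KO 1 to KO 3. It had enough reads to enter both fits only through the KO group, where it was high. Fzd5 and Fzd6 share exonic bases with Gm38058 and Gm26704 on the other strand.

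Dkk3, a divergent relative of the Dkk inhibitors whose action on Wnt signaling is less settled, made up 66.2% to 93.8% of the summed inhibitor level per length. Dkk3 (chr7:112116017-112159057) stood at 173, 61.2 and 124 CPM in WT 1 to WT 3 and at 329.9, 146 and 489 CPM in KO 1 to KO 3. Every other library lay below KO 1 and KO 3, and KO 2 lay inside the WT range. The log2 fold change was 1.42 (SE 0.55, adjusted p = 0.184) over 6 libraries and 1.78 (SE 0.44, adjusted p = 0.0214) over 5. Dkk2, an inhibitor of Lrp5 and Lrp6, stood at 1.24, 1.24 and 0.987 CPM in the WT libraries and at 1.54, 1.34 and 1.87 CPM in the KO libraries. Its groups did not overlap, yet the difference of 0.57 (SE 0.31, adjusted p = 0.166) over 5 libraries and 0.44 (SE 0.29, adjusted p = 0.297) over 6 did not pass.

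The 4 Sfrp genes did not move together. Sfrp1 (chr8:23411502-23449632) stood at 11, 5.22 and 6.76 CPM in the WT libraries and at 19.8, 15.4 and 25.5 CPM in the KO libraries, with every KO library above every WT library. Its log2 fold change was 1.38 (SE 0.34, adjusted p = 0.184) over 6 libraries and 1.56 (SE 0.34, adjusted p = 0.0166) over 5. Sfrp2, a close relative of Sfrp1, stood at 7.19, 4.55 and 9.32 CPM in the WT libraries, at 11.6 CPM in KO 2, and at 3.02 and 2.34 CPM in KO 1 and KO 3. KO 2 was the highest library and KO 1 and KO 3 the lowest, so that the log2 fold change was -1.38 (SE 0.38, adjusted p = 0.0286) without KO 2 and -0.33 (SE 0.66, adjusted p = 0.717) with it. Sfrp2 shares exonic bases with Gm26771 on the other strand. Sfrp4 stood at 4.95, 8.79 and 7.35 CPM in the WT libraries and at 3.14, 6.86 and 2.97 CPM in the KO libraries, with KO 2 inside the WT range. Its log2 fold change was -1.20 (SE 0.32, adjusted p = 0.0270) over 5 libraries and -0.72 (SE 0.43, adjusted p = 0.258) over 6. Sfrp5 stood at 2.71, 0.982 and 0.296 CPM in the WT libraries, a range that held the KO libraries at 1.37, 1.16 and 0.781 CPM.

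Summed by role and per length, ligands stood at 31.0, 34.5 and 39.5 CPM per kilobase in the WT libraries and at 42.8, 32.1 and 57.0 in KO 1, KO 2 and KO 3. Receptors stood at 47.9, 58.8 and 59.9 CPM per kilobase in the WT libraries and at 35.3, 51 and 36.0 in the KO libraries. Inhibitors stood at 62.3, 27.5 and 47.7 CPM per kilobase in the WT libraries and at 107.2, 57.6 and 155.2 in the KO libraries. KO 1 and KO 3 thus had the highest ligand and inhibitor sums and the lowest receptor sums, while KO 2 lay within the WT range for all 3 roles. For receptors this order holds per length only. Without dividing by length, their sums were 273, 297 and 299.9 CPM in the WT libraries and 257, 246 and 276 CPM in KO 1, KO 2 and KO 3, so that KO 2 was the lowest library and KO 3 lay above WT 1. The inhibitor sum followed Dkk3, and the receptor sum followed Fzd9 and Fzd1. In the ligand sum, Wnt9a took 1.31% to 5.24% in the WT libraries and 5.10% in KO 2, against 12.9% and 14.9% in KO 1 and KO 3.

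**Figure D3:**
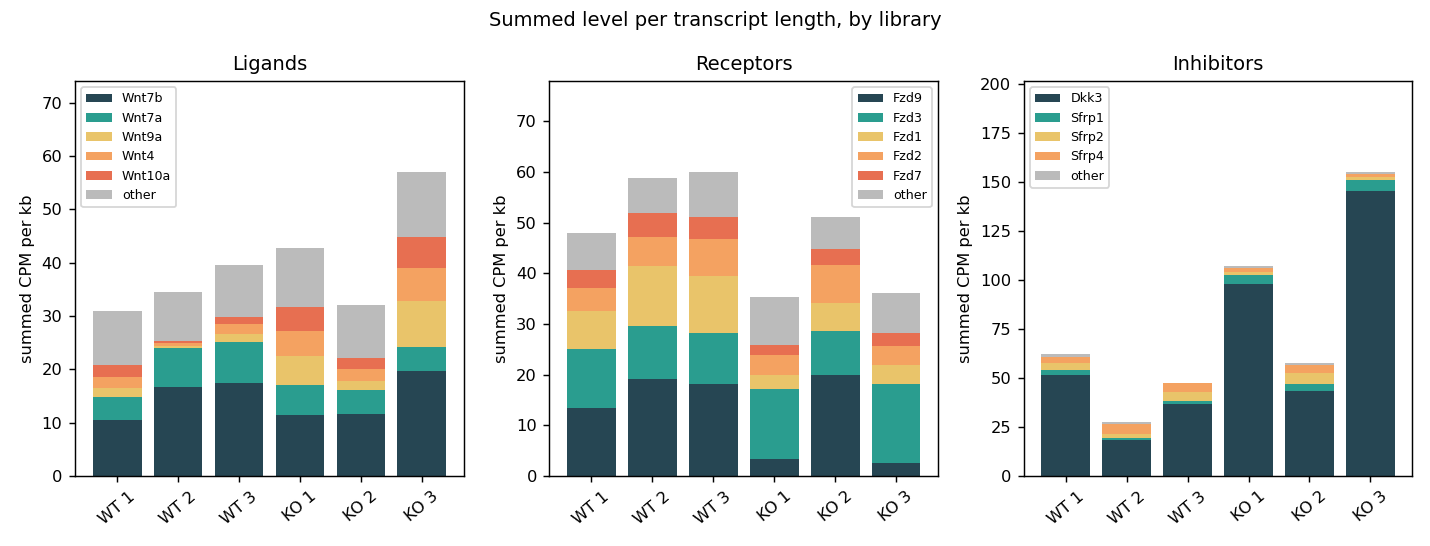
Summed level in CPM per kilobase of transcript, stacked by gene, in each library for ligands, receptors and inhibitors (bars start at 0 and the axes differ between panels). Receptor bars are shortest in KO 1 and KO 3 (35.3 and 36.0), where the Fzd9 segment is smallest, and inhibitor bars are tallest there (107.2 and 155.2), nearly all Dkk3.

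For 12 of the 30 genes (40%), KO 2 fell between the lowest and the highest WT library, against 54.4% of all genes. Of the 11 genes called as higher without it, KO 2 was above the WT range for Sfrp1, Wnt4, Wnt9a and Wnt10b, within it for 6 and below it for Fzd3. Of the 6 called as lower, KO 2 was below the WT range for Fzd1 and Fzd7, within it for Sfrp4 and Wnt5b, and above it for Fzd9 and Sfrp2.

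Summed markers of several cell types also set KO 1 and KO 3 apart from the WT libraries, while those of endothelial cells did not. Summed over 16 neuron markers, all above 0 in every library, the level was 6757, 2251 and 3961 CPM in the WT libraries, 5577 CPM in KO 2, and 14650.3 and 17651 CPM in KO 1 and KO 3. Summed over 10 glioma progenitor markers such as Olig2, Sox2 and Pdgfra it was 1707, 2412 and 2137 CPM in the WT libraries, 2125 CPM in KO 2, and 570.3 and 381 CPM in KO 1 and KO 3. Over 10 genes of cycling cells it was 1157, 2056 and 1983 CPM, 1278 CPM in KO 2, and 131 and 45.2 CPM in KO 1 and KO 3. Without KO 2, 14 of 16 neuron markers were higher (24.5% of all genes), and all 10 progenitor and all 10 cycling markers were lower (28.3% of all genes). Astrocyte markers (8 genes) summed to 3200.1 to 4237 CPM in the WT group and 4614 to 6689 CPM in the KO group. Without Slc1a2, the glutamate transporter that was the most abundant of them, they summed to 2413 to 2861 CPM and 2287 to 2677 CPM, and Gfap was lower without KO 2 (-2.24, adjusted p = 0.0080). Microglia and macrophage markers (10 genes) summed to 1239, 1262 and 1207 CPM in WT 1 to WT 3, 1666 CPM in KO 2, and 676 and 595 CPM in KO 1 and KO 3. Of these 10 genes, 6 were lower and 1 was higher without KO 2. Oligodendrocyte markers (8 genes) summed to 1331 to 3403 CPM in the WT group and 3253 to 7613 CPM in the KO group. Endothelial markers (10 genes) summed to 181 to 222 CPM and 177 to 245 CPM, and fibroblast and mural markers (10 genes) to 165 to 206 CPM and 212 to 270.4 CPM. Without KO 2, 4 astrocyte, 2 oligodendrocyte, 2 endothelial and 2 fibroblast and mural markers were higher, and of these lists only Gfap was lower. No marker of these lists was at 0 in any library, and their part in the differences of the Wnt, Fzd, Sfrp and Dkk genes was not tested.

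Within the WT group, WT 2 had the lowest neuron sum and WT 1 the lowest progenitor sum. Of the 11 genes called as higher without KO 2, 8 had their lowest WT level in WT 2 (72.7%), as did 82.5% of all 3986 genes called as higher. Of the 6 called as lower, 5 had their lowest WT level in WT 1 (83.3%), as did 87.8% of all 4608 genes called as lower. The exceptions were Wnt1, Wnt2 and Fzd3, which were lowest in WT 3, and Sfrp2, which was lowest in WT 2.

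**Figure D4:**
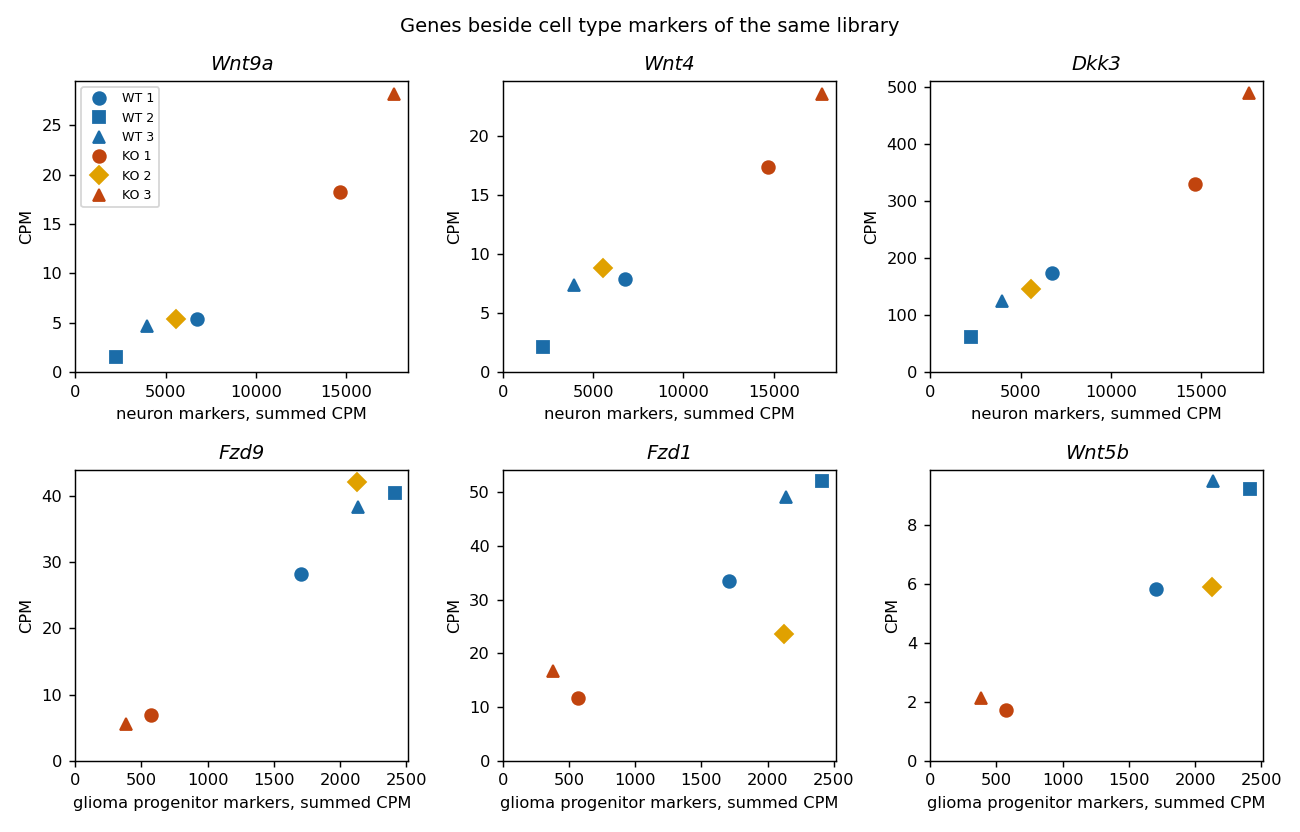
Level in CPM of 3 genes higher and 3 genes lower without KO 2, against the summed CPM of neuron markers (top row) or glioma progenitor markers (bottom row) in the same 6 libraries. Wnt9a, Wnt4 and Dkk3 are highest in KO 1 and KO 3, where neuron markers reach 14650.3 and 17651 CPM, and Fzd9, Fzd1 and Wnt5b are lowest in them, where progenitor markers stand at 570.3 and 381 CPM.

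The rest of the pathway was read from lists by role, with no gene of any list called over all 6 libraries. Counts are over the 5 libraries without KO 2, where 52.8% of all genes were called (28.3% lower and 24.5% higher). Of the 3 genes of ligand secretion, Porcn, which adds the lipid, rose (1.31, adjusted p = 0.0104), as did Notum, which removes it (1.65, adjusted p = 0.0137), and the ligand transporter Wls fell (-0.90, adjusted p = 0.0274). Of 16 co-receptors and partners of Frizzled at the cell surface, 6 fell and 3 rose, from -1.92 for Tspan12, a partner of Fzd4 in Norrin signaling, to 1.96 for Lgr6, a receptor for R-spondins. Of 11 other secreted modulators, 4 fell and 4 rose, from -3.45 for the inhibitor Draxin, which also guides axons, to 2.5 for the R-spondin Rspo2, which strengthens Wnt signaling.

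Inside the cell, 2 of 17 genes of the relay and the beta-catenin destruction complex fell and 6 rose, from -1.46 for Amer1 to 1.18 for Btrc, and 3 of 13 nuclear factors fell and 2 rose, from -1.53 for Tcf7l1 to 0.80 for the co-repressor Tle4. Among the 14 tested of 15 common beta-catenin targets, 5 fell and 2 rose. Myc (-5.05), Cd44 (-3.14), Ccnd1 (-2.16), Apcdd1 (-1.27) and Nkd1 (-0.66) fell, and Notum (1.65) and Tnfrsf19 (0.41) rose. Axin2, a feedback inhibitor of the pathway, stood at 26.4, 27.4 and 23.9 CPM in the WT libraries and at 31.1, 27.5 and 33.2 CPM in the KO libraries. Its log2 fold change was 0.32 (SE 0.13, adjusted p = 0.0914) over 5 libraries and 0.22 (adjusted p = 0.297) over 6, and neither passed. Axin2 was chosen after its values were seen. Of 11 planar cell polarity genes, 3 fell and 7 rose, from -1.73 for Vangl2 to 1.68 for Prickle1.

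Partners of Wnt7a, Wnt7b and Fzd4 were also read one by one, chosen after their values were seen. Gpr124 and Reck, which form the endothelial receptor complex for Wnt7a and Wnt7b, had log2 fold changes of 0.66 (SE 0.17, adjusted p = 0.0242) and 0.50 (SE 0.20, adjusted p = 0.0784) over 5 libraries. For Fzd4 itself the level overlapped between groups (above), while its co-receptor Lrp5 fell (-1.25, SE 0.17, adjusted p = 0.0080), and Ndp, which encodes Norrin, was at -0.46 (SE 0.24, adjusted p = 0.151). Over all 6 libraries none of these passed.

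**Figure D5:**
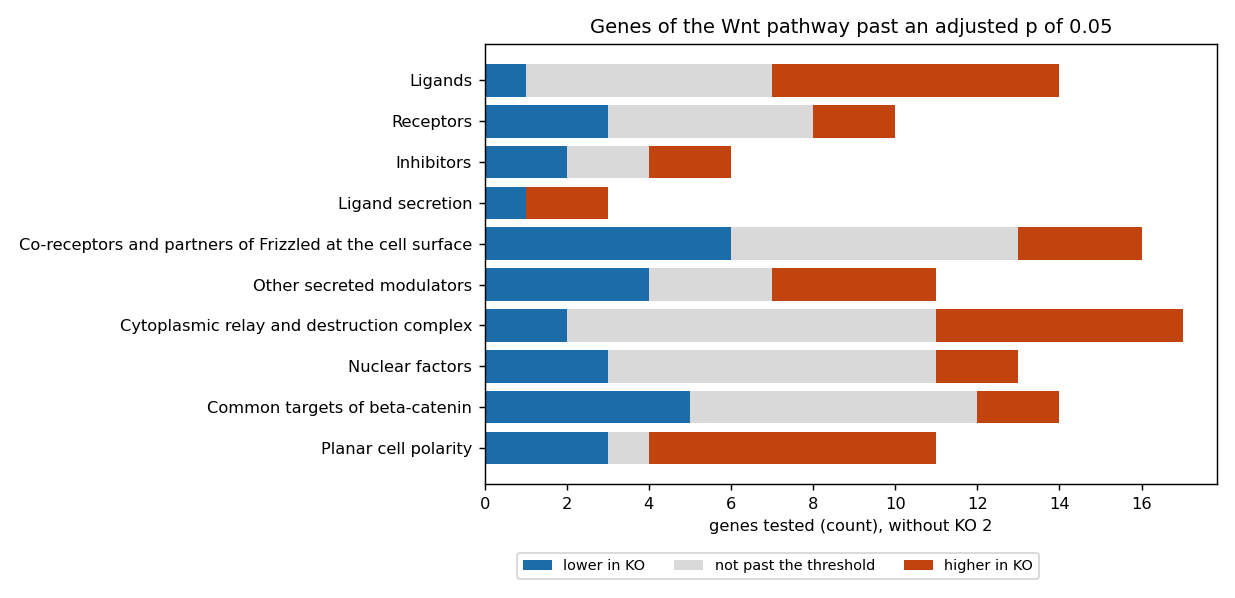
Number of tested genes lower (blue), not past the threshold (grey) and higher (orange) in the KO group without KO 2, for the ligands, receptors and inhibitors and for the other lists of the pathway. Ligands (7 of 14 higher) and planar cell polarity genes (7 of 11 higher) have the longest orange bars, and co-receptors (6 of 16) and beta-catenin targets (5 of 14) the longest blue ones. Bars are counts over 3 to 17 tested genes, so their length also depends on list size. Of all genes, 24.5% were higher and 28.3% lower.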

How the data were processed

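RNA was sequenced from tumors of mG7080 cells, with 3 libraries per host genotype, and groups followed the sample labels. The authors deposited raw counts of reads per gene, made with HTSeq per the study's methods. The methods name hg38 and the labels' processing notes mm10, CASAVA 1.8.2 and edgeR. Library kits also differ between the labels (NEBNext Ultra) and the methods (Ovation Ultralow). Gene symbols and chromosomes of all 30 genes are those of mouse in GENCODE vM21. The authors' FPKM served only to recover each gene's transcript length. The deposited normalized signal, the authors' log2 fold changes with p-values and their rank score hold their own scaling or comparison and were not used. The table lists only genes counted in 4 or more libraries and with 5 or more reads in their highest library.

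Counts were fitted with edgeR 4.0.16 in R 4.3.3 (filterByExpr with minimum count 10 and minimum total 15, TMM, quasi-likelihood F test, Benjamini-Hochberg over all genes tested). The standard error is the size of the log2 fold change over the square root of F. CPM used TMM factors over all 6 libraries, and CPM per kilobase divides by transcript length. Floors of 3 counts cover counting error only. Per the study, each group was 3 mice, so p-values measure the spread between tumors of separate hosts. The fits were tested on simulated counts. Other settings tried were DESeq2 1.42.0, edgeR's exact test, scaling by RLE or by the upper quartile, an unfiltered table, each library left out and a replicate block.

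The engineered alleles of the tumor line are not reported here. The members and lists were chosen with earlier results of these data known. Genes with a mean of at least 1 CPM are given in every library. Fold changes are printed for genes that passed or did not overlap in either comparison and for the most abundant of each role, and from each other list for its lowest and highest gene and for called targets. Tables were made with pandas 2.3.3 and numpy 2.4.6 in Python 3.11.15, and plots with matplotlib 3.10.9. Promoters are from RefSeq (GRCm38.p6), gene positions from GENCODE vM21 (GRCm38).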

Additional observations from a re-analysis of the deposited data

How the results depend on the processing

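None of the 30 genes was called over all 6 libraries by edgeR's quasi-likelihood test under RLE or upper quartile scaling, without the filter on low counts, or with any library left out except KO 2. DESeq2 called 4, the exact test 1, and leaving out 1 library gave 0 to 17, the 17 without KO 2. Over the 5 libraries, both scalings, the missing filter, DESeq2 and the exact test left the count within 1.5 times of 17, but leaving out 1 more library gave 0 to 20. Only Fzd9 was still called without KO 1, and none without KO 3, where a single KO library is assumed to vary like the WT group. Of single calls over 5 libraries, the exact test lost Fzd3 (adjusted p = 0.0537) and gained Fzd10 (adjusted p = 0.0213), and DESeq2 gained Wnt5a (adjusted p = 0.0393).

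Leave-one-out medians of log2 fold change ran from 0.47 to 1.24 for ligands, -0.35 to -0.03 for receptors and 0.025 to 0.61 for inhibitors over 6 libraries, and from 0.84 to 1.27, -0.45 to -0.011 and -0.17 to 0.67 over 5. Directions turned in genes not called under that comparison. Over 6 libraries Wnt7b ran from -0.39 to 0.068 (0.016 without WT 2, 0.048 without KO 1, 0.068 without WT 3, 0.067 without KO 2), Fzd2 from -0.54 to 0.045 and Sfrp2 from -1.38 to 0.042. Over 5, Wnt7b ran from -0.37 to 0.40, at -0.15 without WT 1 and -0.37 without KO 3. Among genes whose fold changes are not printed, Fzd6, Sfrp5 and Wnt3 also changed sign in some alternatives over 6 libraries, and Fzd4, Fzd6, Sfrp5, Wnt3 and Wnt6 over 5, the widest being Sfrp5 over 5 (-0.31, against 0.74 without WT 1). The cause was not tested.

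With the replicate number as a block, 0 genes were called over 6 libraries, with medians of 0.79 for ligands, -0.22 for receptors and 0.25 for inhibitors. Deviations of same-numbered libraries from their group means correlated at 0.638, 0.675 and -0.281 for numbers 1, 2 and 3. KO 3 and WT 1, of unlike number, reached 0.627. Deviations from the mean of 3 libraries are tied to each other, so these values cannot decide whether the numbers pair the samples. Depth limits Wnt1, Wnt10b, Wnt16 and Fzd10, where single libraries held few reads. The same holds for Sfrp5 (6 reads in WT 3), Wnt6 (10 in WT 2) and Wnt10a (16 in WT 2).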
